A study of Saccharomyces cerevisiae with 26 samples.

Results

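The comparison asked whether the effect of the H3A110C mutation on messenger RNA levels depended on the growth medium. H3A110C yeast carries cysteine in place of alanine at position 110 of histone H3, introduced by CRISPR-Cas9 into both chromosomal H3 genes, HHT1 and HHT2, under their natural promoters. WT is the matching strain, OCY1131, derived from BY4741 in the S288C background, so each genotype stands for 1 strain. Both strains were grown in SCEG, a synthetic medium with ethanol and glycerol in which yeast has to respire, and in SC, the synthetic complete medium with glucose in which it ferments. For every gene the difference between H3A110C and WT was taken within SCEG and within SC, and the second was subtracted from the first. This medium difference is an interaction term, and a positive value means that H3A110C stood higher relative to WT in SCEG than in SC. The 12 libraries of H3A110C SCEG, WT SCEG, H3A110C SC and WT SC, 3 of each, were used out of 26 in the series. The other libraries come from strains that also carry gsh1Δ or cup1F8*, all grown in SCEG. Cells were collected after 2 to 3 doublings. All groups share the MATa mating type and the deletion alleles of HIS3, LEU2, MET17 and URA3 of the parent strain. The mRNAs of LEU2, MET17 and URA3 reached at most 0.504 CPM (read counts scaled to a common total with the TMM factors). HIS3 was counted in every library, between 35.5 and 74.7 CPM.

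Histone H3 of most eukaryotes has cysteine at this position and that of budding yeast has alanine, and H3 has been described as an enzyme that reduces copper to the cuprous form, which copper chaperones carry to mitochondrial and other enzymes. Respiration draws on copper and iron far more than fermentation does, since cytochrome c oxidase and the iron-sulfur proteins of the respiratory chain need both metals. On ethanol, glucose repression is lifted and yeast turns on the glyoxylate cycle, gluconeogenesis, acetate uptake and peroxisomal β-oxidation.

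The codon for alanine 110, counted without the first methionine, is shown in capitals in the reference sequence of both H3 genes, to place the substitution that all H3A110C libraries carry and all WT libraries lack. The HHT1 stretch is chrII:256631-256690 on the plus strand and the HHT2 stretch chrXIV:575691-575750 on the minus strand, both in the R64 assembly and both written in the direction of the gene.
HHT1: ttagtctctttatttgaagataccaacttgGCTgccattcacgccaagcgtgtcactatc
HHT2: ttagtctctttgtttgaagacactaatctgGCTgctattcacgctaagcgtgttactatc
A count per gene cannot tell the codons apart. The level of HHT1 and HHT2 did not differ detectably between the strains in either medium. For HHT1 the log2 ratio of H3A110C to WT was 0.08 (SE 0.117) in SCEG and 0.09 (SE 0.117) in SC. For HHT2 it was 0.08 (SE 0.106) in SCEG and 0.01 (SE 0.105) in SC.

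The SCEG libraries held between 3707388 and 5096081 counted reads and the SC libraries between 9428849 and 12305863, so that 3 counts amounted to at most 0.809 CPM in SCEG and 0.318 CPM in SC, for counting error only. Carbon source genes followed the labels in every library: ADH2, the ethanol-oxidizing alcohol dehydrogenase, ranged from 2004 CPM upwards in H3A110C and from 2723 CPM upwards in WT in SCEG, and stayed at or below 7.42 CPM in SC, whereas the glucose transporter gene HXT3 reached at least 1822 CPM in SC and at most 33.1 CPM in SCEG. In SC, the library marked B of each strain stood apart from libraries A and C. Its chi-square per gene against them was 112 and 134 in H3A110C and 92.4 and 97.9 in WT, whereas A and C differed by 3.51 and 8.99. Library B of each strain held the highest HXT6, HXK1 and GPH1 of its group. The letters stand in the column names only. Some genes were not counted alike in both media. Of 5915 genes tested, 48 had no count in any of the 6 SCEG libraries, and 26 of these had more than 300 counts over the 6 SC libraries. Among them were HYP2, which encodes the essential translation factor eIF5A, with 93377 counts in SC, the ribosomal protein genes RPL22A, RPL39 and RPL43A, and both CUP1 metallothionein genes. A count of 0 for HYP2 cannot be read as missing mRNA, and no medium difference can be drawn for these genes. Strains were therefore compared only within a medium, and levels were not compared between media, since medium, depth and counting cannot be told apart there. Tested genes without a count in SCEG were kept in the counts and medians of the gene lists below. Among such list members were CUP1-1, CUP1-2, RPL22A, RPL39, RPL43A, MET28 and PAU6.

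No gene passed the test for a medium difference. Of 5915 genes, 0 higher and 0 lower values (0%) reached an adjusted p below 0.05 (edgeR's quasi-likelihood test, p-values adjusted after Benjamini and Hochberg). The smallest adjusted p was 0.440, for YHL050C. Without adjustment, 50 genes (0.845%) had a positive and 62 genes (1.05%) a negative difference at p below 0.05, 1.89% in all. DESeq2's Wald test called 1 gene, YHL050C, and limma-voom called 0. The median SE of the difference was 0.22 on the log2 scale, and the 95% interval lay within 1 log2 unit of 0 for 4425 genes (74.8%), so a doubling of the strain effect by medium was outside the interval for most genes. In counts simulated with these libraries' spread, each library was drawn independently, and changes were planted only in genes with mean counts above 50. The same test recovered 41% of 2-fold and 97% of 4-fold differences, so that 2-fold differences would often be missed. The rates do not cover genes with fewer counts or a deviation shared between libraries.

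In the same edgeR fit the strain effect taken within each medium was called for 1 gene, the same in both. MIC19 passed in SCEG (1 of 5915 genes higher, 0.0169%, and 0 lower) and in SC (1 higher, 0.0169%, and 0 lower). Without adjustment, p lay below 0.05 for 114 higher (1.93%) and 131 lower genes (2.21%) in SCEG, 4.14% in all, and for 20 higher (0.338%) and 17 lower genes (0.287%) in SC, 0.626% in all. Other fits called more: in SCEG DESeq2 called 12 genes, among them IMD2, CYS4, ADY2, MFA1, POX1, FAA2 and CTA1, and edgeR with all 26 libraries called 13, and in SC both DESeq2 and limma-voom called YHL050C beside MIC19. The 3 H3A110C libraries lay above the 3 WT libraries without overlap for 320 genes (5.41%) and below them for 307 genes (5.19%) in SCEG, against 82 genes (1.39%) above and 58 genes (0.981%) below in SC. Of the genes without overlap, 4 were higher and 2 lower in both media. Across all genes tested the strain effects in the 2 media had a Pearson r of 0.01, and across the 4206 genes with a mean log2 CPM above 5 an r of 0.06, a description over genes, which are not independent.

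**Figure D1:**
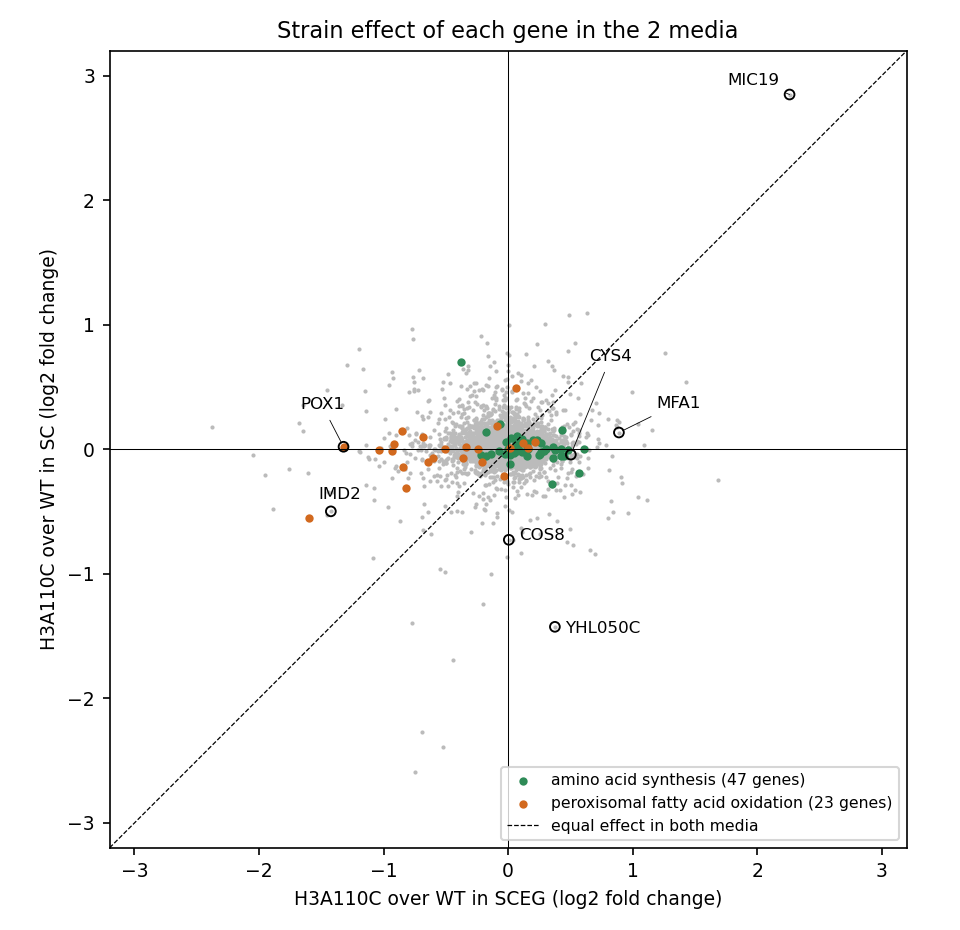
Log2 ratio of H3A110C to WT in SCEG (horizontal) and in SC (vertical), 1 point for each of 5720 genes, without 194 genes that had 3 counts or fewer throughout a group and 1 gene beyond the axes. MIC19 lies alone at the upper right, near the dashed line of equal effects, the peroxisomal genes spread to the left along the horizontal axis, and YHL050C and COS8 lie below it.

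MIC19 was the gene called higher in both media, by a smaller fold in SCEG, although that medium difference was not called. It encodes a subunit of MICOS, the complex that shapes the junctions of the mitochondrial inner membrane (YFR011C, chromosome VI, 166746 to 167258, minus strand). MIC19 had 72.9, 60.6 and 71.2 CPM in H3A110C SCEG, against 14.9, 16.5 and 11.2 CPM in WT SCEG. It had 50.6, 54.4 and 51.4 CPM in H3A110C SC, against 7.01, 8.26 and 6.47 CPM in WT SC. The strains were far apart in both media, with no overlap. The fold was 4.79 in SCEG (log2 2.26, SE 0.151, adjusted p = 9.02e-05, edgeR's quasi-likelihood test) and 7.20 in SC (log2 2.85, SE 0.152, adjusted p = 8.63e-06). The medium difference of MIC19 was -0.59 (SE 0.208, 95% interval -1.05 to -0.13) and was not called (unadjusted p = 0.0165 in edgeR, adjusted p = 1). The other 5 MICOS genes did not share this pattern: their medium differences ran between -0.23 for MIC10 and 0.01 for MIC60, and none had an unadjusted p below 0.05. Neither gene next to MIC19 was called: UBP6 had a strain effect of -0.00 (SE 0.145) in SCEG and -0.03 (SE 0.144) in SC, and DCV1 had 0.08 (SE 0.403) in SCEG and -0.24 (SE 0.412) in SC.

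IMD2 had lower levels in H3A110C in both media, by more in SCEG, and whether the medium difference was called depended on how library B of SC was treated. The gene (YHR216W, chromosome VIII, 554396 to 555967, plus strand, 6.68 kb from the chromosome end) encodes inosine monophosphate dehydrogenase, the first step of guanine nucleotide synthesis from IMP, and is induced when GTP is short. IMD2 had 23.6, 22.6 and 23.7 CPM in H3A110C SCEG, against 62.5, 64.0 and 61.0 CPM in WT SCEG, which do not overlap. It had 102, 168 and 105 CPM in libraries A, B and C of H3A110C SC, against 155, 229.8 and 147 CPM in those of WT SC. Here the ranges overlap, because library B was highest in both strains, and within each letter H3A110C was lower. The log2 fold change was -1.42 (SE 0.220, adjusted p = 0.13 in edgeR) in SCEG and -0.50 (SE 0.203) in SC. In SCEG, IMD2 was called by DESeq2 (adjusted p = 6.59e-06) and by edgeR in the fit of all 26 libraries (adjusted p = 0.00672), both with library B kept and no block. The medium difference of IMD2 was -0.92 (SE 0.298, 95% interval -1.58 to -0.27) and was not called (unadjusted p = 0.0103 in edgeR, adjusted p = 1). With the letters entered as a block in SC it was -0.92 (SE 0.104) and passed (adjusted p = 0.0103 in edgeR), the 1 medium difference called in that fit (0.0169% of 5915). IMD2 then also passed in SCEG (adjusted p = 5.68e-06 in edgeR) and in SC (adjusted p = 0.0167), where it and YHL050C were the 2 lower calls (0.0338%). Without library B of either strain the medium difference was -0.90 (adjusted p = 0.0221 in edgeR), the 1 called of 5852 genes (0.0171%), and in SC IMD2 was the 1 lower and MIC19 the 1 higher call (0.0171% each). The remaining genes of the pathway gave no such value. IMD3 and IMD4, which encode the constitutive isoforms, had medium differences of -0.04 (SE 0.157) and 0.17 (SE 0.232), and of 19 genes of IMP dehydrogenase and purine synthesis tested, IMD2 was the 1 with an unadjusted p below 0.05. The 3 genes share sequence: 66.3% of the 50-base windows of IMD2, 83.4% of those of IMD3 and 92.8% of those of IMD4 occur once in the genome.

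**Figure D2:**
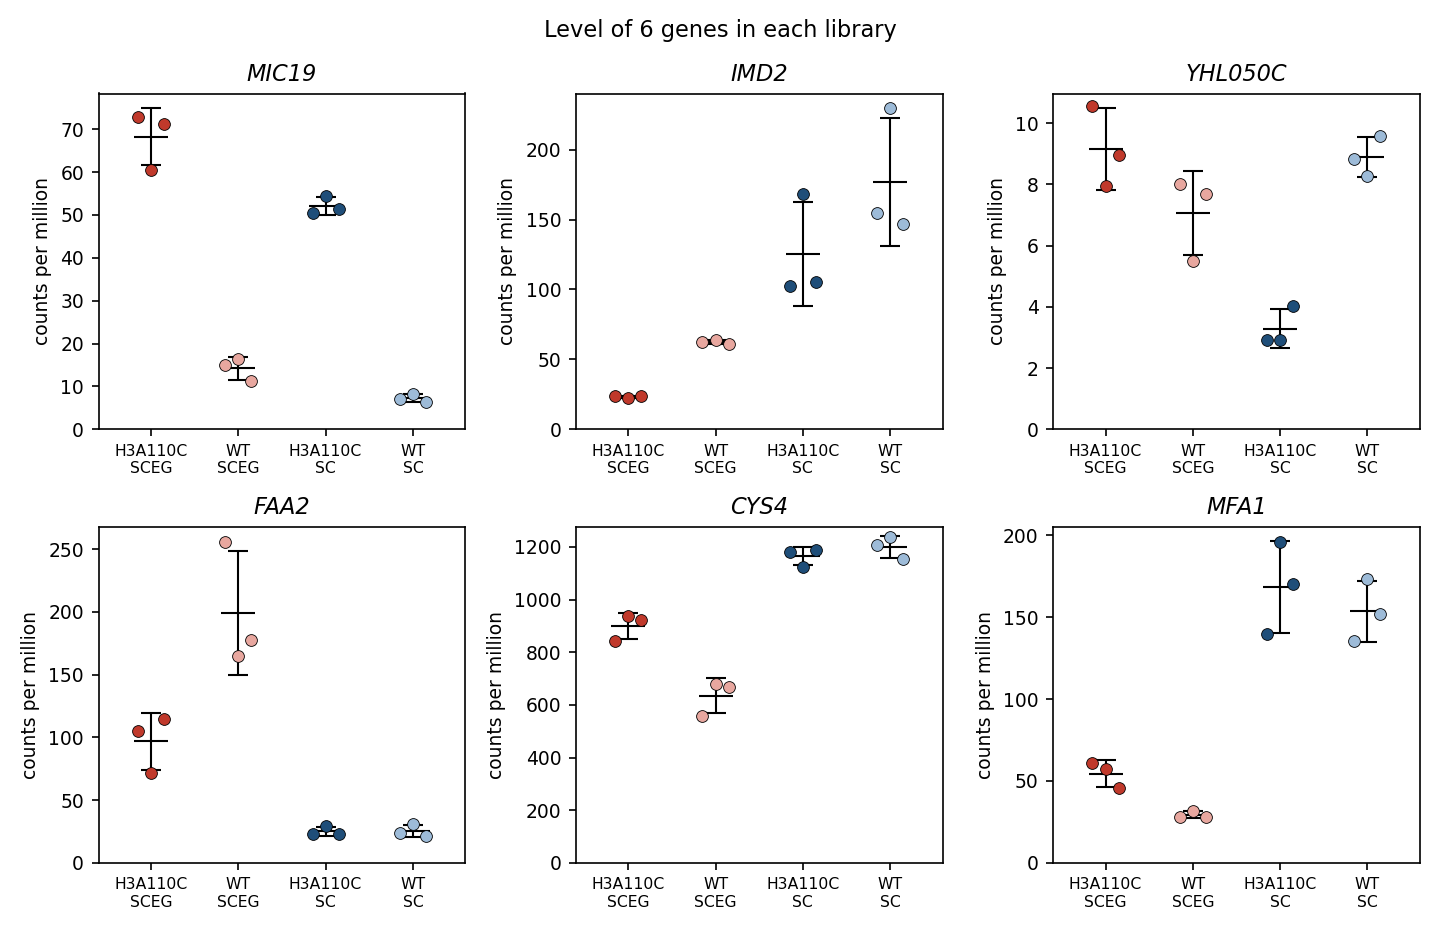
Level in CPM of MIC19, IMD2, YHL050C, FAA2, CYS4 and MFA1 in each library (points), with the mean and SD of the 3 libraries (bars), in the order H3A110C SCEG, WT SCEG, H3A110C SC and WT SC. MIC19 is separate between strains in both media, FAA2, CYS4 and MFA1 in SCEG alone, and YHL050C in SC alone.

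Genes of peroxisomal fatty acid oxidation had the most negative medium difference of the lists examined. These genes are switched on by the Oaf1-Pip2 factor through the oleate response element and by Adr1 when glucose is absent. Of 23 listed genes, all tested, 18 had a negative and 5 a positive difference, with a median of -0.51 on the log2 scale against -0.01 over all genes tested. None was called, and 6 had an unadjusted p below 0.05, all negative (1.05% of all genes). The list was drawn up after the values of single genes were seen, so its direction is a description. In SCEG, 13 of the 23 lay below WT without overlap and 1, OAF1, above, where 5.19% and 5.41% of all genes did. In SC none of the 23 was without overlap, where 1.39% of all genes lay above and 0.981% below. The median strain effect was -0.51 in SCEG and 0.00 in SC.

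FAA2, which encodes the peroxisomal medium-chain acyl-CoA synthetase, had 105, 71.4 and 115 CPM in H3A110C SCEG, against 256, 165 and 177 CPM in WT SCEG. It had 23.0, 29.3 and 23.2 CPM in H3A110C SC, against 23.4, 31.0 and 21.7 CPM in WT SC. The strains were apart in SCEG and overlapped in SC. FAA2 had a medium difference of -1.03 (SE 0.314, unadjusted p = 0.00734 in edgeR), from -1.04 in SCEG and -0.01 in SC. CTA1, the peroxisomal catalase that removes the hydrogen peroxide of β-oxidation, had 152, 122 and 192 CPM in H3A110C SCEG, against 376, 252 and 252 CPM in WT SCEG, and between 9.43 and 12.5 CPM in all SC libraries of both strains. Its medium difference was -0.96 (SE 0.286, unadjusted p = 0.0066 in edgeR).

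Further enzymes of the pathway, named here after their values were seen, had the same order in SCEG. POX1, the acyl-CoA oxidase of the first step, had 53.5, 44.7 and 69.7 CPM in H3A110C SCEG, against 192, 115 and 114 CPM in WT SCEG, a log2 fold change of -1.32 (SE 0.275). FOX2, the multifunctional enzyme of the next steps, had -0.93 (SE 0.292) in SCEG and -0.01 (SE 0.302) in SC. POT1, the thiolase of the last step, had 15.6, 13.7 and 16.2 CPM in H3A110C SCEG, against 80.6, 33.1 and 24.0 CPM in WT SCEG. WT replicate 1 was much the highest library for POT1, and the lists as a whole show the same library. IDP3, the peroxisomal isocitrate dehydrogenase that supplies NADPH, had between 25.5 and 27.7 CPM in the libraries of H3A110C SCEG, against 47.8, 43.3 and 51.0 CPM in WT SCEG, an even separation over all libraries. ECI1 and TES1, an enoyl-CoA isomerase and a thioesterase, had -0.85 (SE 0.283) and -0.68 (SE 0.193) in SCEG, with 0.14 (SE 0.284) and 0.10 (SE 0.193) in SC. Of the regulators, PIP2 had -0.36 (SE 0.0968) in SCEG and -0.07 (SE 0.0953) in SC, while OAF1 had 0.12 (SE 0.0772) and 0.05 (SE 0.0756).

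Because Oaf1 and Pip2 bind the oleate response element, the 500 bases before each start codon were searched on both strands for CGGNNNTNA followed by 9 to 12 bases of any kind and CCG. Of the 23 genes, 14 (60.9%) had a match, against 1.96% of 5666 genes tested with such a window. Genes of this pathway are known to be switched on through the element, so a high share follows from the choice of genes. The matches of 5 genes that lay below WT are shown in the direction of the gene, with the matching letters in capitals, for R64. They lie at chrV:184343-184389 (FAA2, plus strand), chrVII:107834-107880 (POX1, plus strand, the farther of its matches), chrXI:457325-457370 (FOX2, minus strand, the farther of its matches), chrIV:969854-969901 (CTA1, minus strand) and chrXIV:614497-614543 (IDP3, plus strand). In FAA2, POX1, FOX2 and IDP3 the pattern reads on the opposite strand, so the capitals show its reverse complement.
FAA2: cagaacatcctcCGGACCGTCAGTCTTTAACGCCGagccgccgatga
POX1: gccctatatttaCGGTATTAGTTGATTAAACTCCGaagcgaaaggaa
FOX2: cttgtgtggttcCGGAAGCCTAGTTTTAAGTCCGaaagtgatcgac
CTA1: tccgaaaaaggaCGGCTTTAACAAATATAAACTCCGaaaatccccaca
IDP3: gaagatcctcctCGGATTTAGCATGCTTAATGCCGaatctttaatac
Within the list, the 14 genes with a match had a median strain effect of -0.83 in SCEG and -0.01 in SC, and 12 of them lay below WT in SCEG without overlap (5.19% of all genes). The 9 genes without a match had medians of 0.02 and 0.01, and 1 of them, CIT2, lay below. Outside the list, 97 genes had a match, with a median of -0.06 in SCEG, and 12 of them lay below WT and 3 above without overlap, where 5.19% and 5.41% of all genes did. A match is a description of the letters and not a measured binding site.

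**Figure D3:**
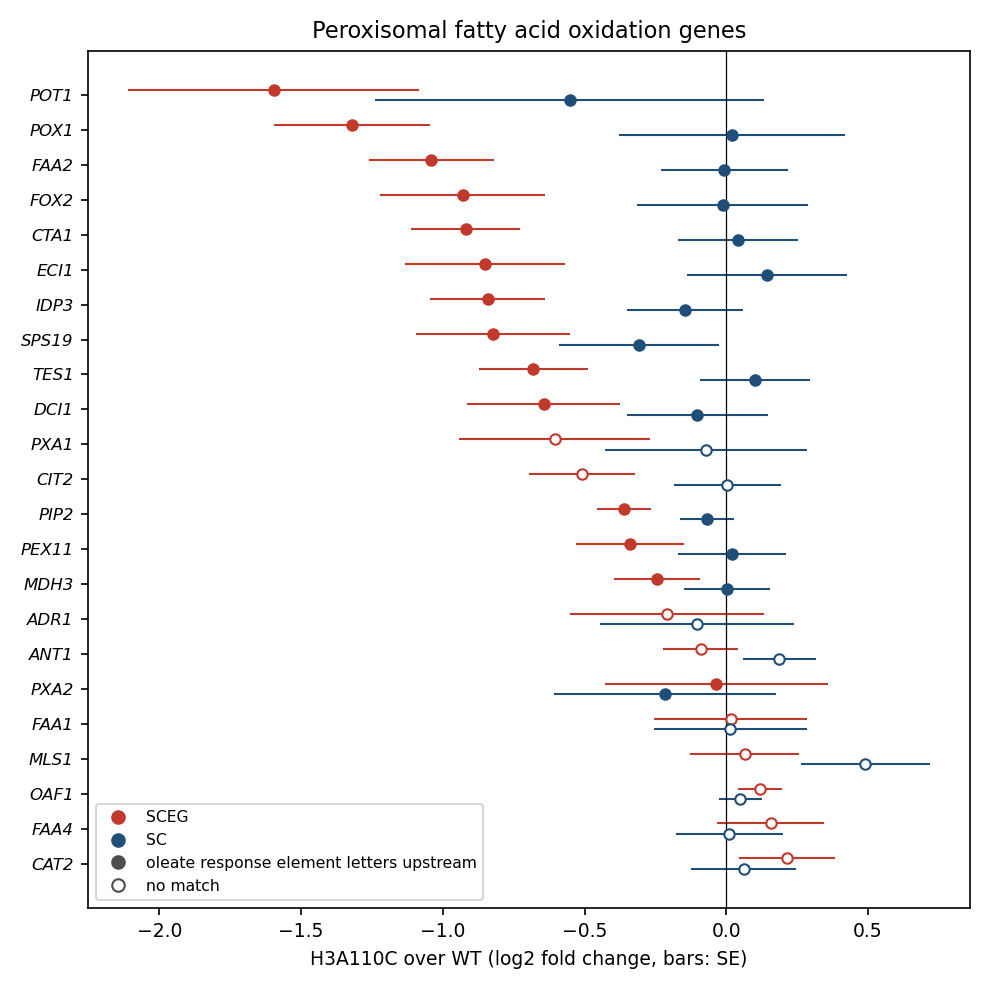
Log2 ratio of H3A110C to WT with its SE for the 23 genes of peroxisomal fatty acid oxidation, in SCEG (red) and SC (blue); filled points mark genes with the oleate response element letters in the 500 bases before the start codon. In SCEG the filled points reach -1.60 for POT1 and -1.32 for POX1, while the median over the genes is 0.00 in SC.

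Genes for acetate use and gluconeogenesis, which turn ethanol carbon into sugars, had negative medium differences in part, none of them called in edgeR. Of 22 genes tested, the median medium difference was -0.24, and 4 had an unadjusted p below 0.05, all negative (1.05% of all genes). In SCEG 6 lay below WT without overlap (5.19% of all genes) and 0 above (5.41%). DESeq2 called the strain effect in SCEG for ADY2 (adjusted p = 0.000397), ATO3 (0.0185) and ACS1 (0.0463), all lower. ADY2, an acetate transporter, had 63.2, 66.6 and 64.5 CPM in H3A110C SCEG, against 169.6, 109 and 119 CPM in WT SCEG, and at most 0.899 CPM in H3A110C SC and 1.16 CPM in WT SC. Its medium difference of -0.90 (SE 0.360, unadjusted p = 0.0294 in edgeR) therefore rests on SC levels of a few counts. ACS1, the acetyl-CoA synthetase used without glucose, had 495, 426 and 581 CPM in H3A110C SCEG, against 1065, 777 and 789.7 CPM in WT SCEG, and ATO3, named with ACS1 after their values were seen, had a strain effect of -1.45 (SE 0.347) in SCEG and -0.34 (SE 0.332) in SC. Enzymes of the glyoxylate cycle, also named afterwards, gave unlike values: MLS1, malate synthase, lay between 1926 and 2141 CPM in H3A110C SCEG and between 1864 and 2119 CPM in WT SCEG, which overlap, whereas CIT2, the peroxisomal citrate synthase, had 761, 722 and 833 CPM in H3A110C SCEG, against 1438, 861 and 996 CPM in WT SCEG, which do not.

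WT SCEG replicate 1 moved with these lists. It was the highest of the 3 WT SCEG libraries for 16 of 23 peroxisomal genes and 17 of 22 genes of acetate use and gluconeogenesis, and for 2055 of 5915 genes in all. Against WT SCEG replicates 2 and 3 alone, the median log2 ratio of CPM (pseudocount 0.5) was -0.31 for the peroxisomal genes, where all 3 WT libraries gave -0.51, and -0.02 for acetate use and gluconeogenesis, where all 3 gave -0.17. Below both of these WT libraries lay 13 peroxisomal genes and 7 of acetate use and gluconeogenesis (56.5% and 31.8%, against 8.03% of all genes), and above both lay 3 and 5 (22.7% for acetate use and gluconeogenesis, against 8.83% of all genes). The 13 could not have become fewer, since a gene below all 3 WT libraries is below any of them. With edgeR the median medium difference of the peroxisomal genes without WT SCEG replicate 1 was -0.35. The part of growth stage in this library was not tested.

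With the letters as a block in SC, which narrows the spread that all groups share, the strain effect in SCEG was called for 7 genes higher (0.118%) and 11 lower (0.186%), and without library B of either strain likewise for 7 (0.12%) and 11 (0.188%). Of the 11, POX1, FAA2, FOX2 and IDP3 belong to peroxisomal fatty acid oxidation, and ADY2 and ACS1 to acetate use. The adjusted p-values in edgeR were between 0.0108 for IDP3 and 0.0406 for FAA2 among the peroxisomal genes, and 0.0217 for ADY2. None of these genes had a called medium difference in that fit, so an effect in SCEG different from that in SC is not shown for them.

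Genes of amino acid and sulfur metabolism stood on the other side. Of 24 genes of sulfate assimilation and methionine tested, the median medium difference was 0.28, 5 had an unadjusted p below 0.05, all positive (0.845% of all genes), and 8 lay above WT without overlap in SCEG (5.41% of all genes) and 0 below (5.19%). WT SCEG replicate 1 was the lowest of its group for 11 of the 24, and against WT SCEG replicates 2 and 3 alone the median log2 ratio in SCEG was 0.17, where all 3 gave 0.27. CYS4, cystathionine β-synthase, which channels homocysteine toward cysteine and glutathione, had 844, 936 and 921 CPM in H3A110C SCEG, against 559, 678 and 668 CPM in WT SCEG. In SC it had 1179.5, 1126 and 1188 CPM in H3A110C, against 1206, 1238 and 1154 CPM in WT. The strains were apart in SCEG and overlapped in SC. CYS4 had a medium difference of 0.55 (SE 0.121, 95% interval 0.28 to 0.81, unadjusted p = 0.000947 in edgeR, adjusted p = 1). MET10, a subunit of sulfite reductase, had 129, 129.8 and 126 CPM in H3A110C SCEG, against 93.9, 97.9 and 95.5 CPM in WT SCEG, and overlapped between strains in SC. Its medium difference was 0.37 (SE 0.112, unadjusted p = 0.00776 in edgeR). CYS3, which makes cysteine from cystathionine and was named after its value was seen, had 0.36 (SE 0.117) in SCEG and -0.03 (SE 0.116) in SC.

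The list of amino acid synthesis genes under Gcn4, the activator of the general amino acid control, was also drawn up after values were seen. Of 47 genes tested, 36 had a positive and 11 a negative medium difference, with a median of 0.13, and 8 had an unadjusted p below 0.05, all positive (0.845% of all genes). Without SC library B of either strain the median was 0.04. In SCEG 14 lay above WT without overlap (5.41% of all genes) and 1 below (5.19%), and in SC none of the 47 was without overlap (1.39% and 0.981% of all genes). WT SCEG replicate 1 was the lowest of its group for 26 of the 47 genes, and the median log2 ratio in SCEG was 0.11 with or without it. LYS20, homocitrate synthase of the lysine pathway, had 237, 242 and 224 CPM in H3A110C SCEG, against 119.6, 180.2 and 175 CPM in WT SCEG, and a medium difference of 0.76 (SE 0.215, unadjusted p = 0.0049 in edgeR). LYS20 has 62.2% of its 50-base windows once in the genome, so reads could be shared with a near copy. ARG1, argininosuccinate synthetase, had 785, 724 and 773 CPM in H3A110C SCEG, against 519.7, 676 and 588 CPM in WT SCEG, and a medium difference of 0.63 (SE 0.198). ORT1, the mitochondrial ornithine exporter, had 54.2, 49.5 and 47.7 CPM in H3A110C SCEG, against 38.8, 37.0 and 42.2 CPM in WT SCEG, and a medium difference of 0.43 (SE 0.129).

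The core of the Gcn4 site, TGACTC, was found on either strand in the 500 bases before the start codon of 33 of the 47 genes (70.2%), against 12.9% of all 5666 windows. The genes were listed as Gcn4 targets, so a high share follows from the choice and tests nothing. A match is not a measured binding site. Stretches of 2 named genes are shown in the direction of the gene with the core in capitals, at chrXV:218854-218883 (ARG1, plus strand) and chrXV:571021-571050 (ORT1, minus strand).
ARG1: gtgattttttagTGACTCatgtcgcatttg
ORT1: agttctgcatcgTGACTCaccttgagctcg
The 33 genes with the core had a median strain effect of 0.20 in SCEG and 0.00 in SC. In SCEG 11 of them lay above WT without overlap (5.41% of all genes) and 1 below (5.19%). The 14 genes without it had medians of 0.05 and -0.01, and in SCEG 3 lay above and 0 below. Outside the list the 698 genes with the core had a median of 0.01 in SCEG, and 44 lay above WT and 32 below without overlap.

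GND1, 6-phosphogluconate dehydrogenase, which yields NADPH in the pentose phosphate pathway, had 515, 522 and 522 CPM in H3A110C SCEG, against 448, 281 and 272 CPM in WT SCEG. In SC it had 1297, 1251 and 1335 CPM in H3A110C, against 1400.1, 1427 and 1246 CPM in WT. WT SCEG replicate 1 lay nearest to H3A110C here. GND1 had a medium difference of 0.71 (SE 0.227, unadjusted p = 0.00997 in edgeR), and without WT SCEG replicate 1 it was 0.98 and passed (adjusted p = 0.0355 in edgeR), the 1 gene called in that fit.

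Some mating genes had higher levels in H3A110C than in WT in SCEG, none of them called in edgeR's fit of the 12 libraries without a block. All libraries expressed genes particular to MATa cells. Genes listed as particular to MATα cells were also counted: SAG1 had 21.9 to 38.1 CPM and STE3 4.83 to 14.4 CPM over all libraries. MF(ALPHA)1 and MF(ALPHA)2 reached at most 11.5 and 7.25 CPM, both in SCEG. MFA1, which encodes the a-factor pheromone, had 60.8, 57.2 and 45.4 CPM in H3A110C SCEG, against 28.0, 31.9 and 28.2 CPM in WT SCEG. In SC it had 139.9, 196 and 170.1 CPM in H3A110C, against 136, 173 and 152 CPM in WT. The strains were apart in SCEG and overlapped in SC. The medium difference of MFA1 was 0.75 (SE 0.213, 95% interval 0.28 to 1.23, unadjusted p = 0.0048 in edgeR, adjusted p = 1). With the letters as a block in SC the strain effect of MFA1 in SCEG, 0.89 (SE 0.115), passed (adjusted p = 0.0103 in edgeR), as it did in DESeq2 (adjusted p = 0.000972) and with all 26 libraries in edgeR (adjusted p = 0.0193), while its medium difference passed in none of these fits. All 6 MATa genes listed had a positive medium difference, with a median of 0.40. AGA2, the binding subunit of a-agglutinin, named with FUS1 after its value was seen, had 50.9, 45.2 and 49.8 CPM in H3A110C SCEG, against 32.5, 38.4 and 39.1 CPM in WT SCEG. Of 28 pheromone response genes tested, a list drawn up after values were seen that also holds these 6, 25 had a positive difference, the median was 0.22, and 8 lay above WT without overlap in SCEG (5.41% of all genes) and 0 below (5.19%). FUS1, a membrane protein of cell fusion, had 0.62 (SE 0.254) in SCEG and 0.01 (SE 0.243) in SC. The pheromone response element, TGAAACA, was found on either strand in 21 of the 28 windows, against 11.9% of all. The list was made of genes of this response, so a high share follows from the choice. WT SCEG replicate 1 was the lowest of its group for 18 of the 28 genes, and against WT SCEG replicates 2 and 3 alone the median log2 ratio was 0.17, where all 3 gave 0.25.

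**Figure D4:**
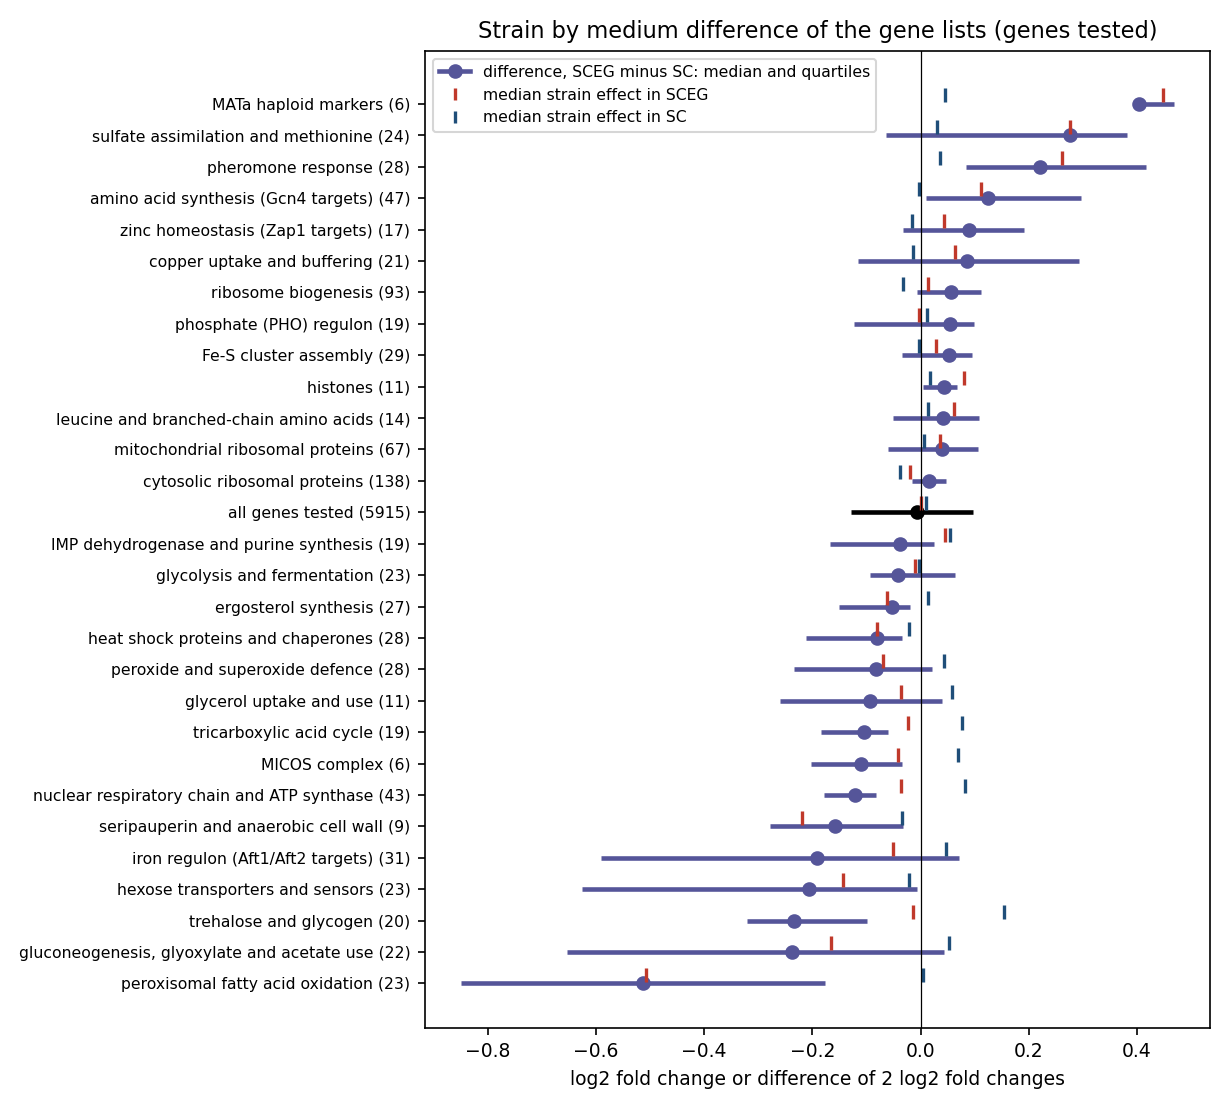
Medium difference of the strain effect for 28 gene lists with at least 6 genes tested and for all genes tested (black): points are medians and bars the quartiles over genes, on the log2 scale, and ticks give the median strain effect in SCEG (red) and SC (blue). Peroxisomal fatty acid oxidation lies lowest at -0.51, and the MATa genes at 0.40 and sulfate assimilation and methionine at 0.28 lie highest.

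Genes of copper and iron, the metals at issue, gave no called medium difference in edgeR. Of 21 copper genes tested, the median medium difference was 0.08, and 2 had an unadjusted p below 0.05, both positive (0.845% of all genes). CTR1, the high-affinity copper transporter, had 49.3, 51.0 and 53.9 CPM in H3A110C SCEG, against 41.2, 39.4 and 40.1 CPM in WT SCEG. In SC it had 12.4, 15.5 and 9.92 CPM in H3A110C, against 14.6, 13.2 and 17.7 CPM in WT. The strains were apart in SCEG and overlapped in SC, with a medium difference of 0.62 (SE 0.226, unadjusted p = 0.019 in edgeR). COX11, which delivers copper to cytochrome c oxidase and was named afterwards, had a medium difference of 0.38 (SE 0.141). Both CUP1 genes were among those without a count in SCEG, and both are held in the 21. Of 31 genes of the iron regulon under Aft1 and Aft2, 1 had an unadjusted p below 0.05, negative (1.05% of all genes), the values ran between -1.23 and 0.86, and the median was -0.19, or -0.06 without SC library B of either strain. That gene, FRE3, a siderophore reductase, had 13.7, 11.1 and 13.3 CPM in H3A110C SCEG, against 20.3, 19.6 and 22.4 CPM in WT SCEG, and a medium difference of -0.73 (SE 0.213, unadjusted p = 0.0056 in edgeR). Of 29 genes of iron-sulfur cluster assembly none had an unadjusted p below 0.05, and the median was 0.05. Zinc genes under Zap1 had a median of 0.09 over 17 genes.

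Genes of respiration itself had mostly negative medium differences, and the size and sign of their medians depended on library B of SC. Of 43 nuclear genes of the respiratory chain and ATP synthase, 41 had a negative medium difference, with a median of -0.12, and none had an unadjusted p below 0.05. The median strain effect was -0.04 in SCEG and 0.08 in SC. Without SC library B of either strain, the median medium difference of the respiratory chain was -0.04 and the median strain effect in SC -0.0049. Of 19 genes of the tricarboxylic acid cycle, 17 were negative with a median of -0.10, against 0.00057 for the tricarboxylic acid cycle without library B. Of 20 genes of trehalose and glycogen, 18 were negative with a median of -0.23 and a median strain effect in SC of 0.15. Both turned sign for trehalose and glycogen without library B, to 0.06 and -0.12, and with the letters as a block they were -0.05 and 0.04. These genes varied with library B: GPH1, glycogen phosphorylase, ranged from 90.9 to 2245 CPM within H3A110C SC and from 80.6 to 1465 CPM within WT SC. Ribosomal protein genes (138, median 0.02), ribosome biogenesis genes (93, median 0.06), mitochondrial ribosomal protein genes (67, median 0.04), heat shock genes (28, median -0.08) and histone genes (11, median 0.04) had no member with an unadjusted p below 0.05. Ergosterol synthesis had 2 of 27 genes, both negative, and a median of -0.05: ERG25, the C-4 methyl sterol oxidase with an iron center, had 299, 282 and 298 CPM in H3A110C SCEG, against 461, 402 and 316 CPM in WT SCEG.

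Near the left end of chromosome VIII, YHL050C and COS8 in H3A110C lay below WT in SC and overlapped with WT in SCEG. YHL050C, an open reading frame of the subtelomeric Y' repeat (445 to 3311, minus strand), had 10.6, 7.93 and 8.95 CPM in H3A110C SCEG, against 8.02, 5.48 and 7.69 CPM in WT SCEG. In SC it had 2.92, 2.91 and 4.04 CPM in H3A110C, against 8.83, 8.26 and 9.58 CPM in WT. The strains overlapped in SCEG and were apart in SC. The log2 fold change was 0.38 (SE 0.209) in SCEG and -1.43 (SE 0.202) in SC, and the medium difference of YHL050C was 1.80 (SE 0.291, 95% interval 1.16 to 2.44), the lowest unadjusted p of all genes (7.45e-05 in edgeR, adjusted p = 0.440). DESeq2's Wald test called it (adjusted p = 0.00337). Its strain effect in SC was not called in edgeR's fit without a block (adjusted p = 0.071). With the letters as a block that effect passed (adjusted p = 0.0281 in edgeR). Only 15.2% of the 50-base windows of YHL050C occur once in the genome, and other Y' genes, YRF1-4 and YRF1-5, were counted in SC and had no count in SCEG, so its level depends on how reads of repeats were assigned.

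COS8, a gene of the subtelomeric COS family that sorts membrane proteins to the vacuole, lies beside it (6401 to 7546, plus strand) and was named after its value was seen. COS8 had 41.4, 48.1 and 54.8 CPM in H3A110C SCEG, against 51.5, 44.5 and 47.7 CPM in WT SCEG. In SC it had 15.7, 22.9 and 16.1 CPM in H3A110C, against 27.1, 35.2 and 28.4 CPM in WT. Its log2 fold change was 0.01 (SE 0.170) in SCEG and -0.73 (SE 0.170) in SC. COS12, at the left end of chromosome VII and likewise named afterwards, had 0.449, 0.582 and 0.0878 CPM in H3A110C SC, against 1.82, 1.75 and 1.85 CPM in WT SC. IMD2 lies at the other end of chromosome VIII and was lower in both media, as was ADH7 near the right end of chromosome III, with -1.08 (SE 0.237) in SCEG and -0.87 (SE 0.308) in SC, named afterwards. Subtelomeric genes went both ways in SC, while in SCEG more of them lay below WT than above. The 64 genes tested within 10 kb of an end had a median strain effect of -0.11 in SCEG and 0.02 in SC. In SC 9.38% lay above and 9.38% below WT without overlap, against 1.15% and 0.838% of the genes at 30 kb or more. In SCEG 3.12% lay above and 9.38% below, against 5.57% and 4.99% at 30 kb or more. Of the 102 genes at 10 to 20 kb, 3.92% lay above and 11.8% below in SCEG, with a median of -0.09.

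The peroxisomal pattern was not seen where H3A110C was set on other mutations in SCEG, each compared with its own strain without H3A110C in a fit of all 26 libraries. The median log2 fold change of the 23 genes was 0.27 in the gsh1Δ background (1 higher and 0 lower called, against 2.69% and 1.63% of all genes tested), -0.04 in the cup1F8* background (3 higher and 1 lower called, against 893 and 749 of 6069 genes) and -0.52 in otherwise WT cells (0 higher and 4 lower, against 0.0494% and 0.165%). In cup1F8* the pheromone response list had a median of 0.29 (14 of 28 called higher, 0 lower). Sulfate assimilation and methionine had 0.33 (10 of 24 higher, 2 lower). Acetate use and gluconeogenesis had -0.31 (3 of 22 higher, 9 lower), and the Gcn4 list 0.03. In gsh1Δ these medians were 0.14, 0.02, 0.21 and -0.09. IMD2 was called lower in cup1F8* (-1.55) but not in gsh1Δ (-0.45). GND1 was called higher in both (0.88 and 0.697), and LYS20 lower in gsh1Δ (-0.75). The differences between backgrounds were not tested. MIC19 rose in all 3, with log2 fold changes of 1.85 (SE 0.132) in gsh1Δ, 1.74 (SE 0.101) in cup1F8* and 2.25 (SE 0.129) in otherwise WT cells (adjusted p = 1.61e-08, 2.92e-10 and 1.96e-10 in edgeR).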

How the data were processed

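The authors aligned strand-specific poly(A) reads to the R64 genome (sacCer3) by HISAT2 and deposited raw counts from featureCounts for 6692 open reading frames in 26 libraries. The sources used here do not say whether both media were counted with 1 setting. A second deposited table, normalized by DESeq2, was not used here. Columns were mapped by name. SC columns carry the letters A to C instead of the replicate numbers in the labels, so a letter names a library only, and 0 columns were left unmapped.

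The 12 libraries were fitted together in edgeR 4.0.16 (R 4.3.3, limma 3.58.1) with TMM scaling, the default filter on low counts within groups (5915 genes kept), and the quasi-likelihood test of the interaction and of the strain effect within each medium. Calls needed an adjusted p (Benjamini-Hochberg) below 0.05. CPM values use the TMM-scaled totals. Of 6692 identifiers, 6008 matched the RefSeq annotation (89.8%); others kept their systematic name. Upstream windows, motif matches and the share of 50-base windows occurring once were computed from the R64 sequence. No fold is given for genes that had 3 counts or fewer throughout a group. The tests were tried on simulated counts with known changes in 200 genes out of 5900, with 8 false calls.

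Genes named are HHT1, HHT2, MICOS and IMD genes, the 10 lowest unadjusted interaction p in each direction, and the member of each list with the lowest; of these, those the results turn on are described, and others are marked as named after their values were seen. The members and lists were chosen with earlier results of these data known.

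In SC, libraries with the same letter deviated together between strains (r = 0.67, 0.87 and 0.58 for A, B and C), and the pairing rests on this and the column names, although A and C of different strains also gave 0.64 and 0.72. The methods name 4 independent experiments, whereas the series holds 3 libraries for each of the groups compared, all analysed here. Nothing says which libraries share a culture, so p-values measure the spread between these libraries. Alternatives covered DESeq2 1.42.0, limma-voom, a robust fit, other scalings and filters, thinning to 3707388 counts, all 26 libraries, blocks by number or letter, and each library left out. The block by letter in SC alone was chosen after seeing the data.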

Additional observations from a re-analysis of the deposited data

Results flagged for a closer look

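The medium difference of IMD2 passed the test with the letters as a block in SC, at -0.92 on the log2 scale, and did not without the block. The remaining entries are genes whose 3 H3A110C libraries lay on opposite sides of the 3 WT libraries in the 2 media, with no adjusted p below 0.05, so that a difference between media is not shown for them. PST1, a cell wall protein gene, had 268, 281 and 279 CPM in H3A110C SCEG, against 359, 307 and 299.9 CPM in WT SCEG, and 204, 216 and 192 CPM in H3A110C SC, against 175, 178 and 191 CPM in WT SC (unadjusted p = 0.00819 in edgeR). TAL1, transaldolase of the pentose phosphate pathway, had 956, 895 and 977 CPM in H3A110C SCEG, against 892, 640.4 and 671 CPM in WT SCEG, and 881, 871 and 864 CPM in H3A110C SC, against 917, 979 and 893 CPM in WT SC (unadjusted p = 0.0168 in edgeR). SPS100 (unadjusted p = 0.00734 in edgeR) and YKL162C-A (0.00122) were lower in SCEG and higher in SC, at CPM between 0.42 and 6.53 for SPS100 and between 0.721 and 3.96 for YKL162C-A, a few counts in many libraries. YDR199W had the same order (unadjusted p = 0.00983 in edgeR) with at most 3 counts in some groups. Of 5915 genes, 4 were lower in SCEG and higher in SC without overlap, and 1 was higher in SCEG and lower in SC. In the same direction in both media, 4 were higher and 2 lower. Taken by medium, 307 lay below and 320 above WT in SCEG, and 58 below and 82 above in SC. Whether the opposite cases exceed what these totals give was not tested.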

How the results depend on the processing

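The count of medium differences called, 0 as reported, was 1 in DESeq2 (YHL050C), 1 with the letters as a block in SC or without SC library B of both strains (IMD2 each time), and between 0 and 1 with single libraries left out; total counts only, DESeq2 size factors, limma-voom, the robust fit, other filters, thinning and all 26 libraries gave 0. SCEG replicate numbers correlated between strains at 0.03, 0.37 and 0.21, so number 1 does not pair; with the numbers as a block 0 genes were called, and with numbers and letters together 10 (4 higher, 6 lower), among them IMD2, MFA1, FAA2, FOX2, HOM3, ATG41 and YHL050C. The SCEG strain effect, 1 gene as reported, was called for 12 genes in DESeq2, 13 in all 26 libraries, 18 with the letter block, 18 without library B, 103 with both blocks, 2 after thinning, 2 with each medium fitted alone, and 1 to 2 with single libraries left out. The SC strain effect, 1 gene, was called for 2 in DESeq2, 2 in limma-voom, 2 without library B, 3 with the letter block and 4 with both blocks, and for 1 in each fit without a single library. MIC19 is the call behind the reported 1. The cause of these shifts was not tested, beyond the narrower shared spread when the letters or library B are taken out. Differences near 0 changed sign: HHT1, -0.01 as reported, was 0.0061 with total counts only and between -0.0908 and 0.113 with single libraries left out, HHT2 between -0.0403 and 0.135, IMD3 between -0.149 and 0.0433, and ADH7, -0.21 as reported, was 0.31 after thinning. Over 50 genes and their settings, 1211 values kept direction and side, 11 gained a call and 13 changed sign. Of list medians, 605 moved less than their spread, also where the sign turned, as for trehalose and glycogen without library B, and 4 moved more; that of peroxisomal fatty acid oxidation stayed between -0.66 and -0.35 with single libraries left out. Depth in SCEG limits genes of a few CPM.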
